A study of Mus musculus with 5 samples.

Results

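The regions described here are the promoter peaks of RXRα found in one wild-type library and not in the other. They are the 1141 peaks in the list of the WT G library whose midpoint lay from 1000 bp upstream to 100 bp downstream of an annotated transcription start site (TSS) and that did not overlap a peak of the WT A list by even 1 bp. They were selected on the presence of a peak in WT G and its absence in WT A, and the WT G list held 9766 peaks, of which 1514 lay at promoters. The other 373 promoter peaks overlapped a WT A peak and are called shared. All 4 lists of the series held 14808 peaks.

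RXRα binding was mapped by HT-ChIPmentation (chromatin immunoprecipitation with Tn5 tagging of the fragments on the beads) in alveolar macrophages (AMs), the macrophages of the airspaces, sorted from bronchoalveolar lavage. The question of the design was which regions of the AM genome are bound by RXRα, and the paper reports those found in WT AMs alone. WT mice were CD11cCre- Rxrabfl/fl littermates, KO mice were CD11cCre+ Rxrabfl/fl, and all carried floxed Rxra and Rxrb alleles on the C57BL/6J background and were 9 weeks old. Each genotype had 2 libraries, named A and G in the labels, and peaks were called over an input sample. Cre was driven by the Cd11c promoter, which is active in AMs and also in dendritic cells, and the labels do not say whether A and G came from separate mice.

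RXRα is a nuclear receptor that binds DNA mostly as a heterodimer with a partner such as PPARγ, LXR or RAR. These dimers recognise direct repeats of the half-site AGGTCA, with a spacer of 1 base (DR1) for PPARγ and of 4 (DR4) or 5 bases (DR5) for LXR and RAR. Most sites of such receptors lie in enhancers away from promoters. Promoters of widely expressed genes, in contrast, are often rich in CpG dinucleotides and carry motifs such as the GC box, the CCAAT box bound by NF-Y and the ETS motif.

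The summit windows below show what the sequences of both classes looked like. Each runs 50 bases to each side of the summit on the strand of the gene (mm10 coordinates), lies upstream of the TSS named and outside annotated exons, and capitals mark every match to a motif searched. Of the strongest such WT G-only peaks, 3 are shown, those upstream of AU019990 (chr2:132597365-132597465, plus strand), Mir142 (chr11:87755886-87755986, plus strand) and Pes1 (chr11:3963775-3963875, plus strand), which tied with other members at 13 fragments. The capitals in AU019990 mark a STAT match, and the other 2 windows held no match.
AU019990: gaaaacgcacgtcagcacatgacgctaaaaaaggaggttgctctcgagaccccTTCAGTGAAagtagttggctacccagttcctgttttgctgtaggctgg
Mir142: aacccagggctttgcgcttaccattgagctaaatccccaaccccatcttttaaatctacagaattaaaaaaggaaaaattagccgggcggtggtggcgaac
Pes1: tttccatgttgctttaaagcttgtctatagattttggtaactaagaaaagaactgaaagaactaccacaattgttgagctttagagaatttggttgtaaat

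The 3 WT G-only windows with the best DR1 matches are shown because DR1 was the most frequent of the 3 direct repeats at shared peaks outside promoters (5.14% of the summits). They lay upstream of Gm5165 (chr17:17234388-17234488, plus strand), Gpd1 (chr15:99716565-99716665, plus strand) and Mroh1 (chr15:76379425-76379525, plus strand). Gm5165 and Gpd1 had 1 mismatch to DR1 and Mroh1 had 2, in a tie with Maff. The capitals also mark a PU.1 match and a separate half-site in Gm5165, a DR5 match in Gpd1 and an ISRE match in Mroh1.
Gm5165: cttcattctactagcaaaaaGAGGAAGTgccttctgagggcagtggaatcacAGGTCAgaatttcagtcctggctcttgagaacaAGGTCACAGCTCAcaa
Gpd1: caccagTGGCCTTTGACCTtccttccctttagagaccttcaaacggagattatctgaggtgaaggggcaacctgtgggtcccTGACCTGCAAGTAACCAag
Mroh1: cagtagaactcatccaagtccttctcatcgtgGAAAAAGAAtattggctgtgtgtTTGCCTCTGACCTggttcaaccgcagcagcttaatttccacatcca

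Shared windows with the best DR1 matches are set beside them and lay upstream of Baz1b (chr5:135187031-135187131, plus strand), Tuba1c (chr15:99028905-99029005, plus strand) and Dtx4 (chr19:12502145-12502245, minus strand). Each had 1 mismatch to DR1. The capitals also mark a DR4 match in Baz1b that overlaps the DR1, and a CTCF match in both Baz1b and Dtx4.
Baz1b: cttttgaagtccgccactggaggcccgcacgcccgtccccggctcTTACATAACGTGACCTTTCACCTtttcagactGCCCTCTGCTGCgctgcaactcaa
Tuba1c: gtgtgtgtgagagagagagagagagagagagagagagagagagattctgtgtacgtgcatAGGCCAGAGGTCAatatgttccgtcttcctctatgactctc
Dtx4: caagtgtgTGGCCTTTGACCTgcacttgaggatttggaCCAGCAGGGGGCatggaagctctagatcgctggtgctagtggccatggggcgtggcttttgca

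The CCAAT box was the one motif that passed the test at the summits of the WT G-only peaks against their own flanks, and 2 strong peaks with it that met the same conditions lay upstream of Arf2 (chr11:103966384-103966484, plus strand) and Ndufs8 (chr19:3912788-3912888, minus strand). Both were chosen after their values were seen. The Arf2 window held 2 matches on the reverse strand and the Ndufs8 window 1 on the strand shown.
Arf2: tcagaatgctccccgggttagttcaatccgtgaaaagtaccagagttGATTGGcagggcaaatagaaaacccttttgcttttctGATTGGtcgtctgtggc
Ndufs8: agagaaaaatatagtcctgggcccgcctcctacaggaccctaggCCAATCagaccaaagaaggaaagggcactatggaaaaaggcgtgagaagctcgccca

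The libraries differed in depth, and WT G stands apart. Beside the 9766 peaks of WT G, the WT A list had 4751, and the KO lists had 83 (A) and 208 (G). Fragment numbers at each summit, derived from the deposited enrichment and p-values, put the depth of WT A at 4.77 times that of WT G, and the KO libraries at 2.73 (A) and 3.58 times (G). These depths are derived and were not checked against read numbers. By them, the library with the longest list was the shallowest. Its genome-wide background was 0.551 fragments against 1.25 in WT A, a smaller gap than that of the depths. Its median peak held 8 fragments and its weakest 5, against 16 and 10 in WT A. The part of depth in the absence of these peaks from WT A was not tested. With 1 library on each side of the rule, WT G-only cannot be told apart from a property of the WT G library.

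The WT G-only promoter peaks were weaker than the shared ones and near the middle of their list, with the same median −log10 q, fragments and fold enrichment as all WT G peaks. These values were used by the rule and are a description. Their −log10 q values at the summit ranged from 1.73 to 13.15 with quartiles of 3.61, 4.64 and 5.73. Their deposited fold enrichment over the local background ranged from 3.87 to 10.3 with a median of 5.80. It is not a plain ratio, since its values fit a constant added to both terms. In the median member the local background was equal to the genome-wide one (ratio 1). They held 5 to 15 fragments at the summit with a median of 8. Shared promoter peaks ranged in −log10 q from 2.45 to 38.1 with a median of 6.88, in WT G fragments from 6 to 36 with a median of 11, and held a median of 17 fragments in WT A. Among the WT G-only peaks, 69.5% held at most 8 fragments against 24.1% of the shared peaks, and 14 of 1141 (1.23%) had a −log10 q of at least 10 against 29.0%. Widths followed, with medians of 272 and 503 bp. The classes overlapped from 6 to 15 fragments, and no WT G-only promoter peak held more than 15 fragments.

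**Figure D1:**
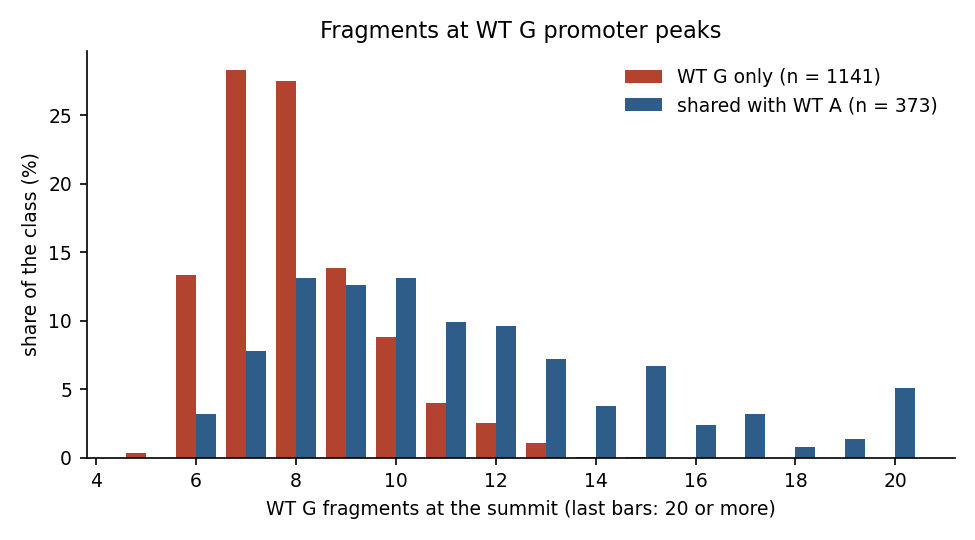
Share of each class of WT G promoter peaks (vertical axis, percent) by the number of WT G fragments at the summit (horizontal axis, the last bars collecting 20 or more), with WT G-only peaks in red and peaks shared with WT A in blue. WT G-only peaks were most frequent at 7 fragments (28.3%) and 8 fragments (27.5%), and shared peaks spread from 6 to over 20.

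Of the WT G promoter peaks, 75.4% (95% exact interval 73.1 to 77.5) had no WT A peak, beside 63.9% of all WT G peaks and 61.8% (60.7 to 62.8) of those outside promoters. Put the other way, promoters held 18.3% of the WT G-only peaks and 10.6% of the shared peaks, beside 15.5% of all WT G peaks. Fewer fragments went with absence from WT A in both settings. At 8 fragments, 86.5% of the promoter peaks (314 of 363) and 79.2% of the peaks elsewhere had no WT A peak. At 10 fragments the shares were 67.3% of 150 promoter peaks and 50.2%. At 11 or 12 fragments they were 50.7% and 36.1%, at 13 to 15 fragments 17.5% and 11.8%, and at 16 or more 0 of 48 promoter peaks and 2.12% of the others. These shares describe how the members were chosen and carry no test.

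**Figure D2:**
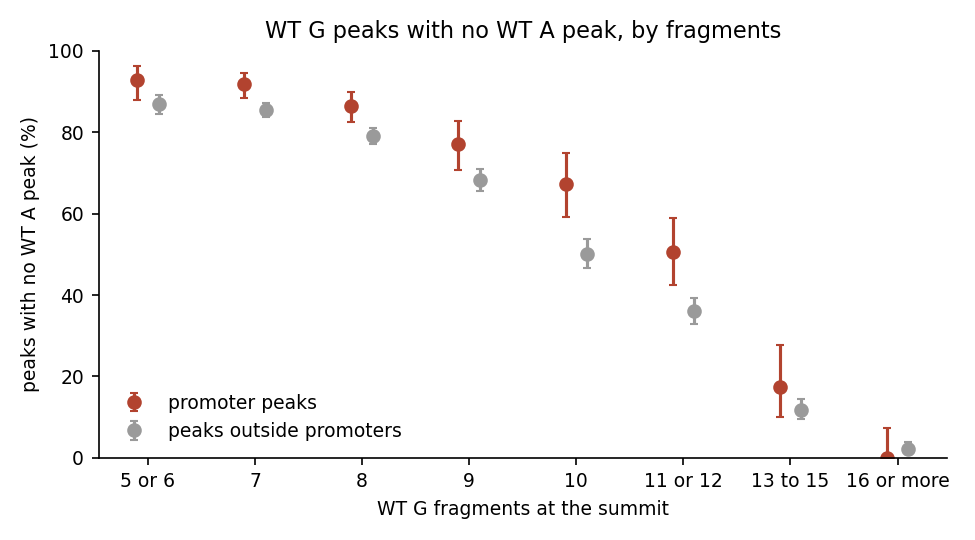
Share of WT G peaks with no overlapping WT A peak (vertical axis, percent) by the number of WT G fragments at the summit (horizontal axis), for promoter peaks in red and peaks outside promoters in grey, with 95% exact binomial intervals as bars. Both shares fell with the number of fragments, from 92.9% and 86.9% at 5 or 6 fragments to 0 and 2.12% at 16 or more.

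In the WT A list, seen from the other side, 525 of 4751 peaks (11.1%) lay at promoters. Of these, 95 (18.1%, 14.9 to 21.7) had no WT G peak, against 16.7% of the WT A peaks outside promoters.

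The border of the rule ran through peaks of like strength. The members closest to a WT A peak were those of Txndc12 (3 bp away, 8 fragments), the non-coding gene Gm26268 (19 bp, 8 fragments) and Gm23444 (24 bp, 8 fragments). The shared peaks with the smallest overlap were those of Snord118 (1 bp, 7 fragments), Amz2 (3 bp, 8 fragments) and Gm43982 (3 bp, 8 fragments), and each of these WT A peaks held 16 or 17 fragments. A WT A peak lay within 500 bp of 98 members (8.59%), within 1000 bp of 14.7% and within 10000 bp of 32.9%.

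No WT G-only promoter peak overlapped a KO peak. The count was 0 of 1141 with each KO list, which allows a share of up to 0.263% by 3 counts and of 0.323% by the upper limit of the exact interval. Over all WT G peaks, 0.788% overlapped a KO A peak and 1.93% a KO G peak. Among WT G-only peaks outside promoters, 2 of 5098 (0.0392%) overlapped a KO A peak and 4 (0.0785%) a KO G peak. The scarcity of KO peaks was therefore shared by WT G-only peaks elsewhere. Among shared promoter peaks, 8 (2.14%) overlapped a KO A peak, 15 (4.02%) a KO G peak and 18 (4.83%, 2.88 to 7.52) either. At 7 to 10 fragments the count was 0 in both classes (0 of 896 and 0 of 174), so in that range no difference was detectable. Of the 6 strongest shared promoter peaks, 3 had a KO peak. The peak of Gm23935 had a −log10 q of 32.4 in WT G, 37.2 in WT A, and of 44.0 and 33.3 in the KO libraries A and G, and the peak of Rnu1a1, a gene of the U1 RNA of the spliceosome, had 33.0 in WT G, 25.9 in WT A and 5.04 in KO A. That of Ltc4s, the leukotriene C4 synthase, had 24.8 in WT G, 29.8 in WT A and 7.40 in KO G. Those of AC163635.1 (38.1 in WT G), B4galnt1 (31.3), an enzyme of ganglioside synthesis, and 5430437J10Rik (24.8) had no KO peak.

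The rule held the members to within 1000 bp upstream and 100 bp downstream of a TSS, so their distances are a description. The midpoint was at most 200 bp upstream or 100 bp downstream of the nearest TSS in 42.9% (39.96 to 45.8), over 200 and up to 500 bp upstream in 29.8% and further upstream in 27.3%. Among shared promoter peaks the shares were 36.7%, 27.9% and 35.4%. The summit lay at a median of −258 bp for the members and −309 bp for the shared peaks, with quartiles of −537 and −87 bp against −672 and −115 bp. TSSs on both strands fell in the window of 141 members (12.4%, 10.5 to 14.4), against 8.04% (5.49 to 11.3) of the shared peaks. No protein-coding TSS was in reach of 17.4% (15.2 to 19.7) of the members and 32.2% (27.5 to 37.2) of the shared peaks, 2 intervals that do not overlap.

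CpG-rich promoters were more frequent among the members. A peak was called CpG-rich where the 250 bp on each side of its summit had a CpG ratio (observed over expected) of at least 0.6 and a GC content of at least 50%. This held for 450 members (39.4%, 36.6 to 42.3), 69 shared promoter peaks (18.5%, 14.7 to 22.8) and 2.31% of the WT G-only peaks outside promoters. The difference between the promoter classes was 20.9 percentage points (15.8 to 25.6). Restricting both classes to 7 to 10 fragments left 40.7% (365 of 896) against 21.8% (38 of 174), a difference of 18.9 points (11.5 to 25.3). Within that range the shares were 59.6% and 33.3% for midpoints up to 200 bp upstream and 37.8% and 18.9% for those up to 500 bp. Further upstream they were 13.03% and 8.16%, with an interval of the difference that included 0 (−6.77 to 11.8 points). Within that range members held 7 or 8 fragments more often than shared peaks did, so strength was not fully matched. The kind of TSS was not matched either, although 17.4% of all members and 32.2% of all shared peaks had no protein-coding TSS in reach. Among WT A promoter peaks, 34.7% (25.3 to 45.2) of the 95 with no WT G peak were CpG-rich and 18.4% (14.8 to 22.4) of the 430 with one, so a higher share was seen among the peaks of a single list in either library. The WT A peaks were not matched for strength, position or kind of TSS.

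**Figure D3:**
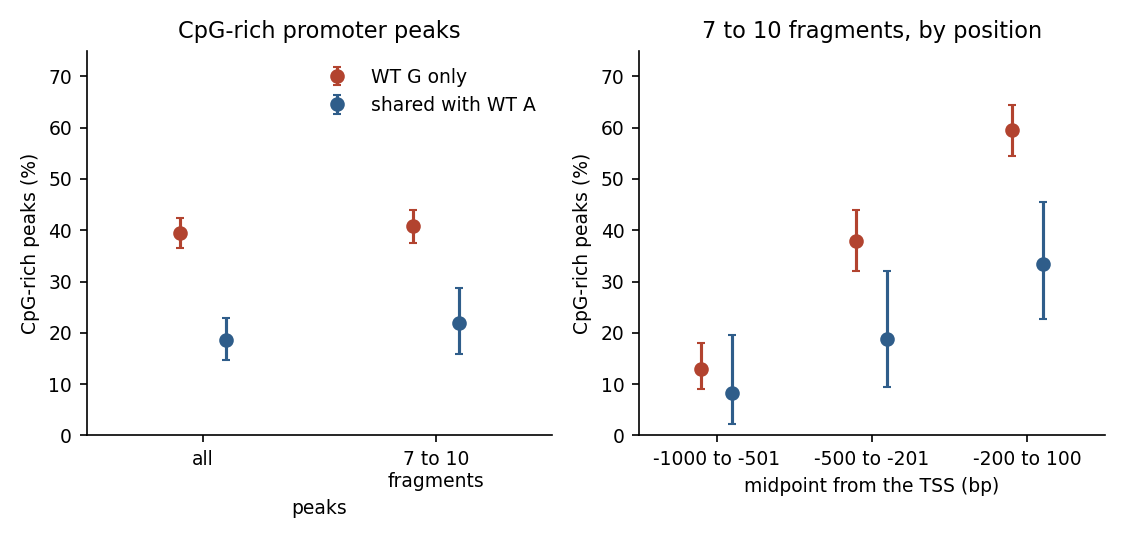
Share of CpG-rich peaks (vertical axis, percent) among WT G-only promoter peaks in red and shared promoter peaks in blue, with 95% exact binomial intervals as bars. The left panel gives all peaks and those with 7 to 10 fragments, and the right panel splits the latter by the distance of the midpoint from the TSS (horizontal axis, bp). WT G-only peaks lay above shared peaks in every group, and the bars of the classes overlapped in the group furthest upstream.

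The median GC content at the summit was higher in the members than in shared promoter peaks, but not furthest upstream. The median within 50 bp of the summit was 51.5% in the members, 48.5% in shared promoter peaks and 44.6% in WT G-only peaks outside promoters, against 58.4% in a window of the same length that ends at the TSS, over all 21755 protein-coding promoters. The members' flanks, 500 bp to each side, also had a median of 51.5%. For midpoints over 500 bp upstream the summit median was lower in the members, at 45.5% against 47.5% in shared peaks, and this turn was not tested. The difference of 2.97 points between the promoter classes had an interval that included 0 at 7 to 10 fragments (−0.16 to 5.18), at a −log10 q from 2 to 5 (−1.15 to 5.11) and with a promoter window of 1 kb on each side (−0.41 to 2.39). The CpG ratio within 250 bp had medians of 0.587, 0.402 and 0.220 in these 3 classes of peaks. The CpG-rich members had the same median strength as the others (8 fragments).

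No RXR element at the members' summits passed the test against the flanks. A DR1 (AGGTCA repeated with 1 base between, up to 2 mismatches, either strand) was found at 16 of 1141 summits (1.40%), in 1.36% of the flanks and in 1.00% of windows of the same length at all protein-coding promoters (exact McNemar test, adjusted p = 1). The plain half-site AGGTCA, which also lies inside many direct repeats, was found at 68 summits (5.96%), in 5.52% of the flanks and in 5.03% of all promoters (exact McNemar test, adjusted p = 1). DR4 was at 11 summits (0.964%) and 1.10% of the flanks and DR5 at 9 summits (0.789%) and 0.526% of the flanks, and the DR1 letters in shuffled order at 8 (0.701%). In shared promoter peaks, DR1 was found at 15 of 373 summits (4.02%) and in 0.804% of the flanks, with an unadjusted p of 0.0192 that did not hold after adjustment over the 26 motifs (exact McNemar test, adjusted p = 0.250). Their half-site share was 12.3%. The members' share minus that of shared peaks was −2.62 percentage points for DR1 (95% interval −5.18 to −0.83) and −6.37 points for the half-site (−10.3 to −3.04). Between peaks of 7 to 10 fragments the DR1 shares were 1.34% and 3.45% and the half-site shares 5.58% and 8.62%, and the interval of the half-site difference included 0 there (−8.32 to 0.70). In that range the members' shares were the higher for midpoints over 200 and up to 500 bp upstream. They were 2.25% against 1.89% for DR1 and 5.62% against 1.89% for the half-site, with intervals that included 0. Nearer to the TSS and further upstream, the members' shares of both were the lower. The interval of the difference lay below 0 for DR1 nearer to the TSS (0.767% against 4.17%, −10.8 to −0.29 points). It also did for the half-site further upstream (3.78% against 16.3%, −25.4 to −4.08 points). For DR1 further upstream and the half-site nearer to the TSS it included 0. At a −log10 q from 2 to 5 the half-site difference was −0.98 points (−7.95 to 3.08). The DR1 difference was −2.25 points (−5.33 to 0.31) with WT G held to the number of WT A peaks and −0.90 points (−2.55 to −0.10) with at most 1 mismatch. WT G-only peaks outside promoters, found by the same rule, had a DR1 at 2.61% of the summits and 1.61% of the flanks (exact McNemar test, adjusted p = 0.0042), so the members differed from them by −1.21 points (−1.92 to −0.25).

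Of the 16 members with a DR1, 2 had 1 mismatch and 14 had 2. The 6 named, with ties broken by the −log10 q, were those of Gm5165 (8 fragments), Gpd1 (7 fragments), a glycerol-3-phosphate dehydrogenase of lipid synthesis, Mroh1 (12 fragments), Maff (12 fragments), a small MAF transcription factor, Ubash3b (11 fragments), a phosphatase that dampens receptor signalling, and Pigm (9 fragments), a mannosyltransferase of GPI anchor synthesis, which tied with Mir7048 and Tmem229b. The nearest WT A peak was 3295 bp away at Ubash3b and 3699 bp away at Maff, and 590 bp away at Jund, a weaker member with 2 mismatches (6 fragments). The shared peaks with DR1 shown above held 14 fragments at Baz1b, a chromatin remodelling subunit, 10 at Tuba1c, a tubulin, and 10 at Dtx4, a ubiquitin ligase of the Deltex family. The DR1 letters of Gpd1 recurred unchanged in the shared window of Dtx4, so the same element was found in both classes.

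The NF-Y motif CCAATC was the one motif of 26 (2 of them shuffled controls) whose share at the summits passed the test against both flanks. It was found at 96 of 1141 summits (8.41%, 6.87 to 10.18) against 4.25% of the flanks, a ratio of 1.98 (exact McNemar test, adjusted p = 0.00586). Regions are not replicates, so this p describes the one list. The motif was in 10.24% of all protein-coding promoters, in the bases next to the TSS, just above the interval of the members' share. It was at 12.7% of the members' summits with a midpoint up to 200 bp upstream of the TSS, at 6.18% up to 500 bp and at 4.17% further upstream, and at 63 of the 450 CpG-rich members against 4.78% of the others. The motif is known to lie close to the TSS, and the part of this position in the difference from the flanks was not tested. With TSSs of protein-coding genes alone the ratio was 1.89 (exact McNemar test, adjusted p = 0.0532), and in members with a −log10 q from 2 to 5 it was 1.63 (adjusted p = 0.666). Shared peaks had the motif at 5.09% of the summits and 3.35% of the flanks (exact McNemar test, adjusted p = 0.980). The members' share was higher than theirs by 3.32 points (0.22 to 5.84), but at 7 to 10 fragments the interval of the difference included 0 (8.82% against 5.17%, −1.03 to 6.81 points). It also included 0 from 500 bp upstream (−1.41 to 6.39), with protein-coding TSSs alone (−1.10 to 5.91), with a 50% overlap of both peaks (−1.09 to 6.29), at a −log10 q from 2 to 5 (−2.94 to 6.33) and with windows of 100 bp to either side (−1.01 to 6.69). Members with an NF-Y match included Arf2, Atf3, Ndufs8, Atp5g1, Sf3b2, Atg2a, H3f3b, Kmt2e, Nr2c2 and the weaker of the Klf4 peaks.

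Among the other promoter motifs, the cAMP response element TGACGTCA was at 15 summits (1.31%) against 0.263% of the flanks, with an unadjusted p of 0.0414 (exact McNemar test, adjusted p = 0.519). The E-box CACGTG, which also lies inside the MITF motif GTCACGTG, was at 3.51% of the summits and 2.06% of the flanks, and MITF at 0.876% and 0.482%. The GC box GGGGCGGGG was at 2.54% of the members' summits and 0.536% of the shared summits, against 10.1% of all protein-coding promoters in the bases next to the TSS. The ETS motif CCGGAAGT was at 1.31% and NRF1 GCGCATGC at 0.351%, against 2.64% and 1.94% of all promoters. For the GC box, ETS and NRF1 the intervals of the members' shares lay below those of all promoters, and for the cAMP response element (1.60% of all promoters), the E-box (3.70%) and MITF (1.54%) they included them. The members' median summit lay at −258 bp.

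Of the motifs of macrophage factors, those of PU.1 and AP-1 were scarcer in the members than in shared peaks, with intervals of the difference that in some settings included 0. PU.1 (GAGGAAGT) was at 0.789% of the members' summits and 2.68% of the shared ones (difference −1.89 points, −4.11 to −0.49), and AP-1 (TGANTCA) at 3.33% and 6.70% (difference −3.37 points, −6.51 to −0.93). Both intervals stayed clear of 0 between peaks of 7 to 10 fragments, where AP-1 was at 2.90% (26 of 896) and 10.3% (18 of 174). Both included 0 where an overlap of 50% of both peaks defined shared peaks (PU.1 −5.25 to 0.27, AP-1 −4.83 to 2.26) and where WT G was held to the number of WT A peaks (−4.73 to 0.09 and −6.49 to 0.19). That of PU.1 also did at a −log10 q from 2 to 5 (−6.34 to 0.43) and that of AP-1 with windows of 100 bp to either side (−6.14 to 0.44). C/EBP (TTGCNNAA) was at 5.26% and 7.24% and RUNX (TGTGGTT) at 2.37% and 4.02%, with intervals that included 0. In WT G-only peaks outside promoters, PU.1 was at 2.24% of the summits and 0.922% of the flanks and C/EBP at 7.24% and 4.62% (exact McNemar test, adjusted p = 0.000272 and 4.21e-06). Of the remaining motifs searched, the shares at the members' summits were 2.54% for STAT (TTCNNNGAA), 3.86% for ISRE (GAAANNGAA), which was higher than the 2.68% of shared summits with an interval that included 0 (−1.21 to 2.94 points), 1.93% for RBPJ (GTGGGAA), 1.93% for ZNF143 (ACTACAA), 4.21% for the TATA box (TATAAA), 1.14% for YY1 (AAGATGGC), 0.876% for CTCF, 0.175% for ZBTB33 (CTCGCGAG) and 0.0876% for SMAD (GTCTAGAC), and none passed the test.

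**Figure D4:**
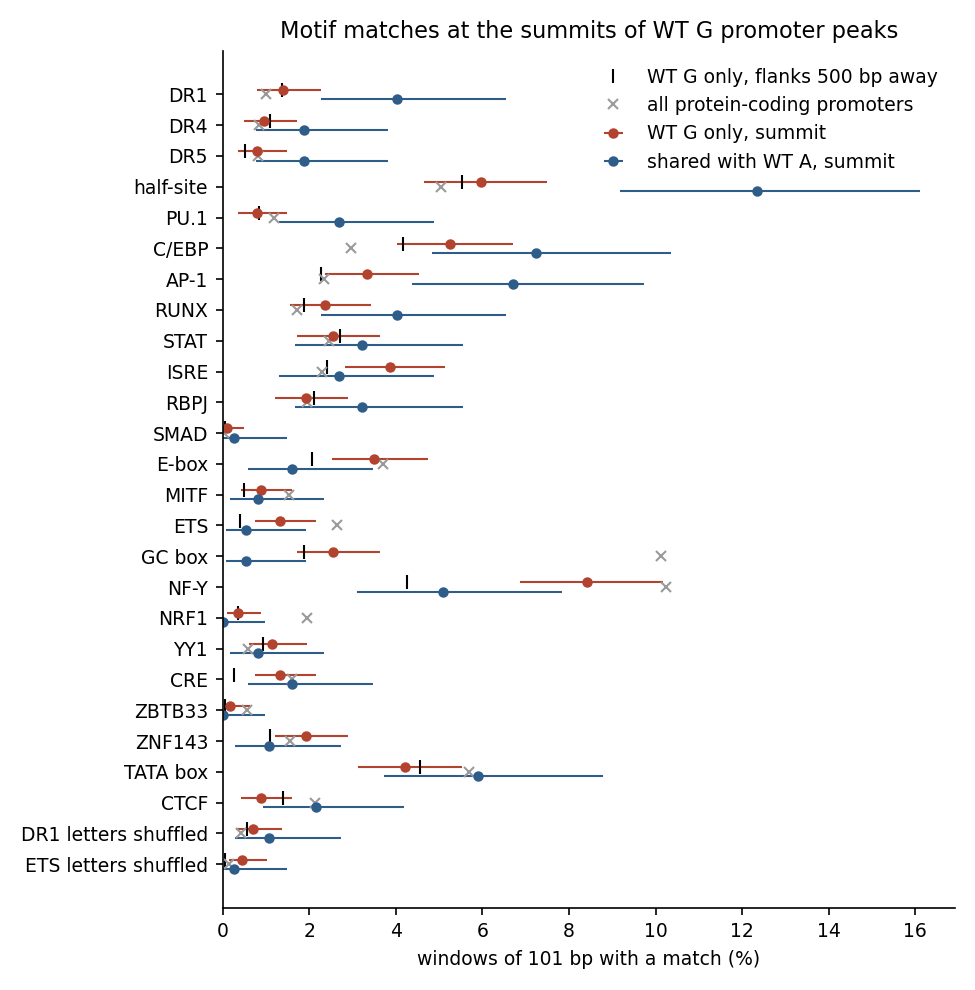
Share of windows around the summit, 50 bp to either side, with a motif match (horizontal axis, percent) at the summits of WT G-only promoter peaks in red and of shared promoter peaks in blue, with 95% exact binomial intervals as bars, for the 26 motifs, 2 of them shuffled controls. Black ticks give the flanks of the WT G-only peaks and grey crosses all protein-coding promoters. The NF-Y point of the WT G-only peaks (8.41%) lay right of its flank tick (4.25%), and the DR1 point (1.40%) lay on it (1.36%).

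The members fell at 1220 genes, of which 956 were protein-coding (4.36% of the 21951 annotated), beside 261 protein-coding genes (1.19%) with a shared promoter peak. Both kinds of peak lay at 47 genes, 4.92% of the 956 and 47 of the 261. Single members made up 1124 genes, 91 genes had 2 and 5 genes had 3. Of the 956 protein-coding genes, 324 (33.9%) were also the gene nearest to some WT A peak, against 236 of 261 (90.4%) with a shared promoter peak and 10.4% of all protein-coding genes. The members spread over 20 chromosomes, with 109 on chromosome 7 and 100 on chromosome 11. They included 116 lincRNA and antisense genes and 23 miRNA genes.

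Of the 12 strongest members, the peak of AU019990 had 15 fragments (−log10 q 13.15) and that of Mir142, a microRNA of blood cells, 14 fragments (11.8). The set cut through a tie, as 12 members held 13 fragments. The other 10 named had 13 fragments each (10.5, fold enrichment 9.03). They lay at Jun, a subunit of AP-1, Rara, the retinoic acid receptor that pairs with RXR, Klf10, a zinc finger factor induced by TGFβ, Hexim1, an inhibitor of the elongation kinase P-TEFb, Sertad2, Shc1, an adaptor of growth factor receptors, Pex10, a peroxisome biogenesis factor, Pes1, a factor of ribosome assembly, Gcnt2, a glycosyltransferase, and the non-coding Gm13431. Distances to the nearest WT A peak ranged from 200 bp at AU019990 and 240 bp at Rara to 710714 bp at Gm13431. At Jun it was 2330 bp and at Klf10 1336 bp. The strongest members thus included both genes with a WT A peak close by and genes far from any.

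The genes with 3 members each were Psap, Tcirg1, Sgk1, Lmna and Slc6a6, through several start sites. At Psap, the precursor of the saposins that activate lysosomal lipid breakdown, the peaks held 6, 8 and 9 fragments. Tcirg1, a subunit of the lysosomal proton pump, had 3 peaks of 8 fragments, and the nearest WT A peak was 155 bp from one of them. Sgk1, a kinase of ion transport and survival signalling, had peaks of 10, 8 and 7 fragments, 1389 to 2795 bp from a WT A peak. Lmna, which encodes lamin A, had 7, 10 and 7 fragments, and Slc6a6, the taurine transporter, 7, 7 and 8 fragments, 32214 to 32942 bp from a WT A peak.

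Some of the listed genes of AM identity had a WT G-only promoter peak. Among the 25 AM genes listed, 9 had one (36%, 17.97 to 57.5), beside 4.36% of all protein-coding genes, and 4 had a shared one, beside 1.19%. They were Itgax (CD11c; 9 and 8 fragments), Krt19 (9), Mrc1 (CD206; 8 and 8), Mertk (8), Plet1 (8 and 6), Olr1 (9), Lpl (7), Slc7a2 (7) and Siglecf (6), a lectin that marks AMs. Of the same list, 22 of 25 genes (88.0%) were the nearest gene to a WT A peak. The list shares genes, such as Siglecf and Pparg, with those the study names as bound. It was chosen, like the other lists, with earlier results of these data known, so its share is a description. The nearest WT A peak was 4170 and 4463 bp from the Itgax members and 1827 bp from that of Siglecf. Among the 21 bound genes that the study names, a list it chose on these samples and so no independent evidence, 8 had a member and 5 a shared promoter peak. Bhlhe40, a transcriptional repressor, had 11 fragments, Runx1 10 and 8, Tlr2 8, and Abca1, the cholesterol exporter driven by LXR and RXR, 7. The WT A peaks lay 1672 bp from the Bhlhe40 peak and 136 and 213 bp from those of Runx1.

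Of 40 transcription factors of myeloid cells, 14 had a member (35.0%, 20.6 to 51.7), beside 4.36% of all protein-coding genes, and 7 had a shared peak (17.5%), beside 1.19%. This list also holds bound genes that the study names, among them Runx1 and Bhlhe40, so its share is a description. Jun (13 fragments), Atf3 (12), a stress-induced factor, Klf4 (11 and 7) and Rbpj (11), the mediator of Notch signalling, were the strongest beside Bhlhe40, followed by Runx1, Zeb2, Fosl2, Irf5, Egr2, Mef2d, Runx2, Klf2 and Jund at 6 to 10 fragments. The nearest WT A peak was 42726 bp away at Rbpj, 58326 and 59024 bp away at Klf4 and 13940 bp away at Atf3, but 173 bp away at Fosl2. Of the 40 nuclear receptors and coregulators, 6 (15%, 5.71 to 29.8) had a member and 3 a shared peak, beside the same 4.36% and 1.19%. They were Rara (13 fragments), Nr1d1 (11), a haem receptor of the circadian clock, Nr4a1 (9), an orphan receptor induced in activated macrophages, Nr2c2 (8), Esrra (7), a regulator of mitochondrial genes, and the corepressor Ncor1 (6). Rara also had a shared peak.

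Targets of the RXR partner receptors numbered 7 of 28 (25%, 10.7 to 44.9), with 4 at a shared peak, beside 4.36% and 1.19% of all protein-coding genes. Among them, Acadl (11 fragments), Acaa2 (9) and Cpt1a (7) encode enzymes of fatty acid oxidation, Plin2 (12 and 8) coats lipid droplets, Lpl (7) releases fatty acids from lipoproteins, and Abca1 (7) is named above. A WT A peak lay 623 bp from the Acadl peak and 366 and 1341 bp from those of Plin2. Lysosomal genes had a member at 9 of 42 (21.4%, 10.3 to 36.8) and a shared promoter peak at 3 (7.14%), beside the same 4.36% and 1.19%. Those with a member were Psap, the proteases Ctsk (7 fragments) and Ctsl (6), the glycosidase Gla (6) and 5 proton pump genes of the list. The 5 were Atp6v0a1 (9), Atp6v1a (8), Atp6v1e1 (8), Atp6v0d1 (7) and Atp6ap2 (7). Tcirg1, described above, was not in the list. Autophagy genes had one at 5 of 31 (16.1%), Sqstm1, a cargo receptor, with 10 fragments, Atg2a with 8, Gabarap with 7, Gabarapl1 and Atg9a, with an interval of 5.45 to 33.7%, and none of the 31 had a shared promoter peak. Only 3 of them (9.68%) were nearest to a WT A peak, close to the 10.4% of all genes.

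Genes of survival, innate sensing and the cell cycle were counted beside the same 4.36%. Of 36 apoptosis genes, 7 had a member (19.4%, 8.19 to 36.0), among them Bcl2l11 (BIM, 9 fragments), Bcl2l1 (BCL-XL, 8) and Casp8 (8). Of 43 genes of innate sensing and NF-κB, 5 had one (11.6%, 3.89 to 25.1, an interval that includes 4.36%), among them Nfkb2 (10 and 7 fragments) and Tlr2 (8). Among 42 cell cycle genes the count was 2 (4.76%), Cdkn1a (8) and Myc (8), near the 4.36% of all genes. Shared promoter peaks lay at 2 of the apoptosis genes (5.56%) and 2 of the innate sensing and NF-κB genes (4.65%). The cell cycle genes had 1 (2.38%), beside 1.19% of all protein-coding genes.

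The shares in lists of housekeeping genes are to be read beside 4.36% of all protein-coding genes with a member and 1.19% with a shared promoter peak. Chromatin regulators had 14 of 98 (14.3%, 8.04 to 22.8) and no shared promoter peak, with Kat6b (11 fragments), a histone acetyltransferase, the strongest, followed by Arid4b, Kmt2e and Smarcd2 (10 each). Splicing factors had 11 of 74 (14.9%, 7.66 to 25.04) and 1 shared, among them Hnrnpl (11), Sf3b2 (10) and Hnrnpf (9). Cytosolic ribosomal proteins had 9 of 78 (11.5%, 5.41 to 20.8) and 3 shared, led by Rps19 (12), Rpl18 (10) and Rpl14 (9). Proteasome subunits had 5 of 48 (10.4%, 3.47 to 22.7) and 0, with Psma6 (10), Psmb3 (8) and Psmb1 (7). Histone genes had 8 of 80 (10%) and 1, including H3f3b, Hist1h2be and Hist1h2bh with 9 fragments each. The shares were lower for translation factors (6 of 67, 8.96%, among them Eif4g1 and Eef1b2 with 9 fragments and Eif4a1 with 8), Rab GTPases (5 of 59, 8.47%, among them Rab29 and Rab40c with 9 and Rab39 with 7), mitochondrial ribosomal proteins (6 of 78, 7.69%, led by Mrpl45 with 10), the respiratory chain (6 of 79, 7.59%, led by Ndufs8 with 12 and Atp5d with 11), ubiquitin-conjugating enzymes (2 of 37, 5.41%, Ube2s with 11 and Ube2d3 with 8) and RNA polymerase II, TFIID and Mediator (4 of 83, 4.82%, among them Gtf2a1 with 9 and Med19 and Med20 with 8). The intervals of these last 6 lists, and that of the proteasome, included the 4.36% of all genes. The share of genes nearest to a WT A peak was 10.8% for the splicing factors, 8.97% for the ribosomal proteins and 6.25% for the proteasome, beside 10.4% of all genes, and it was 18.4% for the chromatin regulators and 20.3% for the Rab GTPases.

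Lists of other cells held few or no members, beside 4.36% of all protein-coding genes. No member lay at any of 16 genes of monocytes and other macrophages, 16 of neutrophils and eosinophils or 18 of lymphocytes, and none of these had a shared promoter peak. The upper limits of the 95% exact intervals were 20.6%, 20.6% and 18.5%, so lists of this size could not show a share below that of all genes. Of 19 lung epithelial genes, 1 had a member (5.26%), Scgb1a1, the secretoglobin of club cells (9 fragments, 340 bp from a WT A peak), and this gene also had a shared peak. Of 1093 olfactory receptor genes, 1 had a member (0.0915%), Olfr111 with 6 fragments.

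**Figure D5:**
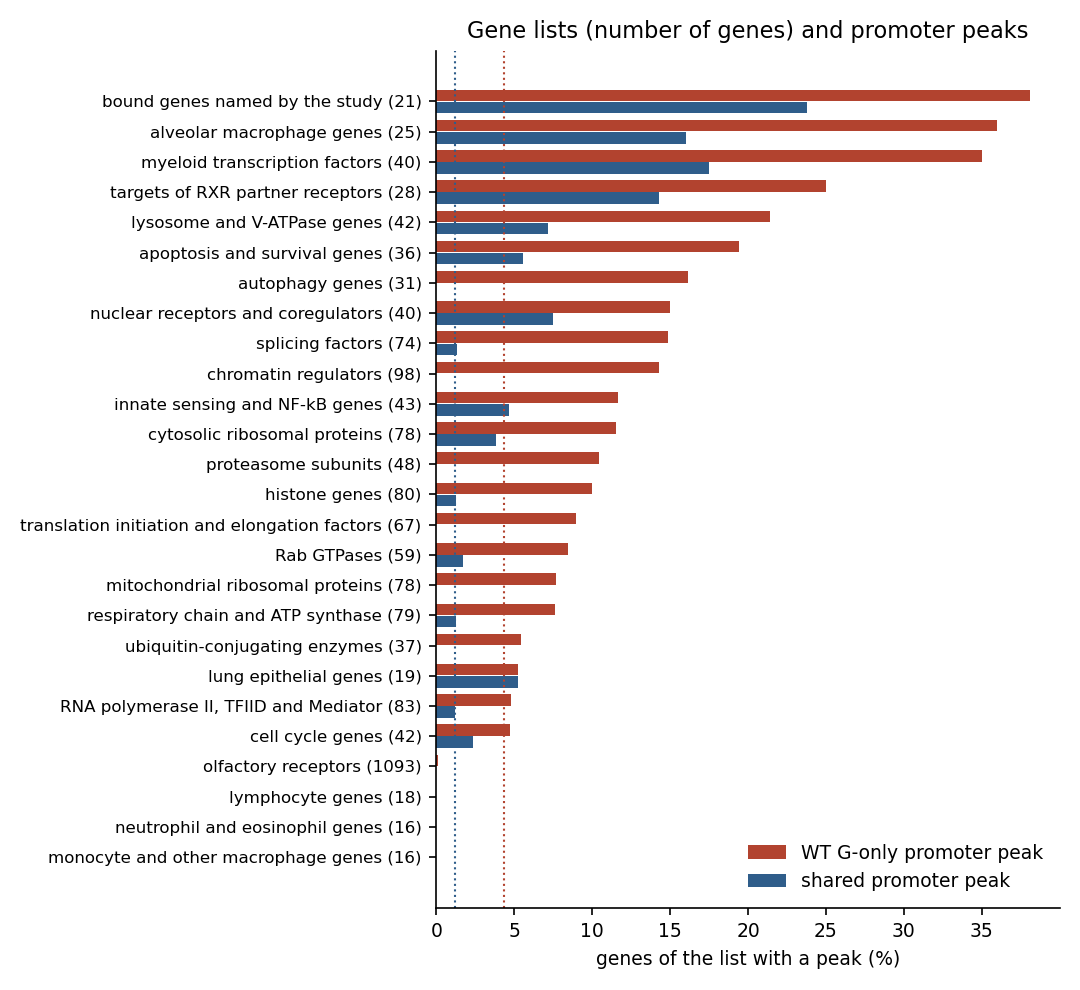
Share of the genes in each list (horizontal axis, percent) with a WT G-only promoter peak in red and with a shared promoter peak in blue. The number of genes is given after each name, and dotted lines mark the shares of all protein-coding genes (4.36% and 1.19%). The red bars of the AM genes (36%) and the myeloid transcription factors (35%) lay right of the red dotted line, and the lists of monocyte, neutrophil and lymphocyte genes had no bar.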

How the data were processed

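RXRα HT-ChIPmentation peaks of AMs from WT (n = 2 libraries) and KO mice (n = 2 libraries) were used as deposited. Per the labels and methods, the authors fixed, sonicated and immunoprecipitated chromatin from sorted AMs, tagged it with Tn5, aligned reads to mm10 with Bowtie2 after trimming by Cutadapt 1.7.1, kept those over a mapping quality of 30 (samtools 0.1.18) and called peaks per library against the input with MACS3 3.0.0a5 at q 0.05. The deposited fold enrichment is a ratio of ChIP to local background at the summit. Its values fit a constant added to both terms, so it is smaller than the plain ratio of fragments to background. The authors' −log10 p and q describe the summit of each peak, the deposited score is a whole-number form of the −log10 q, and the authors' files give the summit as an offset from the start.

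Fragments at summits were solved from that ratio and the −log10 p as whole numbers (tolerance 0.001 on the −log10 p, 0.02 for WT A with a scale of 0.884), which worked for all 14808 peaks. Promoters came from GENCODE M21 (basic set). Motifs were searched on both strands within 50 bp of the summit and in windows 500 bp to each side, and compared by an exact McNemar test (two-sided, the larger p of both flanks, Benjamini-Hochberg adjustment over 26 motifs). Differences between classes carry Newcombe 95% intervals and shares exact (Clopper-Pearson) ones, which cover counting error only. Sequences were read from the mm10 assembly of RefSeq. Scripts ran in Python 3.11.15 with scipy 1.17.1, numpy 2.4.6, pysam 0.24.0 and pandas 2.3.3, and the steps were tested on simulated data. Members named were the 12 strongest, up to 3 peaks per gene list, the 6 with the best DR1 (ties broken by the −log10 q), 3 on each side of the border of the rule, genes with the most members and the 6 strongest shared peaks; further members of the AM, receptor, target and lysosome lists were added after their values were seen. The members and the 26 gene lists were chosen with earlier results of these data known. Alternatives were other promoter windows, TSS sets, overlap rules, q limits, summit windows and flanks. One member of the target list is not reported here.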

Additional observations from a re-analysis of the deposited data

How the results depend on the processing

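A wider promoter window, 1 kb on each side of a TSS, gave 1565 members, a promoter share of 25.1%, 2 members with a KO peak, and class differences with an interval below 0 for 7 motifs and above 0 for 1. From 500 bp upstream to 100 bp downstream, the promoter share was 13.3%, the summit to flank ratio was 0.833 for DR1 and 0.99 for the half-site, and 1 motif had an interval above 0. With protein-coding TSSs alone, the promoter share was 15.1%, the WT G-only share 78.8%, 0 motifs passed the test (NF-Y adjusted p = 0.0532, exact McNemar test) and 1 interval lay above 0. Asking for no WT A peak within 500 bp gave shares of 19.6% and 68.9%, and a 50% reciprocal overlap 16.5% and 89.6%, with 3 KO overlaps and 0 intervals above 0. A −log10 q of at least 3 gave a WT G-only share of 72.9%. Holding WT G to the 4751 peaks of WT A left 363 members, a share of 56.3%, 313 protein-coding genes, a DR1 ratio of 2.4 (adjusted p = 1, exact McNemar test) and 1 interval below 0, with that of DR1 at −5.33 to 0.31. Between −log10 q of 2 and 5, 0 motifs passed, the DR1 ratio was 0.769, and 2 intervals lay below and 0 above 0. At 7 to 10 fragments, chosen after seeing the data, 2 motifs passed (NF-Y and CRE) and 0 intervals lay above 0. Windows of 100 bp to each side gave 1 interval above 0. Flanks at 1000 bp gave 2 motifs past the threshold (E-box and NF-Y) and a half-site ratio of 0.958. The cause of these shifts was not tested. In all, 146 of 206 alternative values were labelled unchanged. For motif ratios and differences this meant the same direction and the same side of the threshold. For shares and the GC difference it meant a value within the interval of the one reported. For counts it meant a value within a fixed factor, so that 1565 members beside 1141 were labelled unchanged.

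Without WT replicate A, every WT G promoter peak counts: a promoter share of 15.5%, a WT G-only share of 100%, 18 peaks with a KO peak and 2 motifs past the threshold. Without WT replicate G there are no members. Leaving out KO replicate A or G gave 0 KO overlaps each, so the range over left-out libraries was 0 to 18. A replicate block by letter (KO G alone beside WT G) also gave 0, but the labels do not say whether a letter marks anything that WT and KO libraries share.

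The limits are 1 library on each side of the rule, a WT G depth at which a typical member rests on 8 fragments, and lists that hold no counts below the peak threshold, so weaker WT A signal at the members could not be seen.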
